A study of Mus musculus with 11 samples.

Results

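The regions described here were open chromatin sites found by ATAC-seq in lung macrophages at day 15 of tumour growth, in neither of the other groups, and away from gene ends. ATAC-seq uses a transposase that inserts sequencing adapters into accessible DNA, and a peak is a stretch where such insertions pile up. The peaks of 3 lists were joined into 16069 regions wherever they shared at least 1 bp. A region became a member when all its peaks came from the day 15 list and it lay more than 1000 bp from both ends of every RefSeq gene of the mm10 build, which left 778. Such regions away from gene ends are called distal here, and the 778 are called day 15-only distal regions. Another 567 day 15-only regions lay within 1000 bp of a gene end and were not members.

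All groups were lung tissue-resident alveolar macrophages sorted from C57BL/6 mice. The naive group (4 samples) came from mice without tumours. The KP groups came from mice injected through the tail vein with KP or KP-GFP cells, a lung tumour line grown in culture, and their lungs were taken after 15 days (4 samples) or 30 days (3 samples). The tumours therefore grew from injected cells and not from the lung's own epithelium, and the labels do not tie either line to single samples. With a single list of peaks for each group, values have no replicate error and no condition can be tested against another. Every interval below is a 95% Wilson interval that covers counting error over regions or genes only.

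Distal open regions often act as enhancers, stretches that bind transcription factors and act on promoters at a distance, inside introns or between genes. In macrophages the lineage factor PU.1 (encoded by Spi1) opens many of them together with C/EBP and, in alveolar macrophages, PPAR-gamma, while signal-dependent factors such as AP-1, NF-kappaB and IRF proteins bind at regions already open or open further ones after a stimulus. An open distal region can also be the start of an alternative transcript inside a longer gene.

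The sequences that the files allow to be shown are those of members lying at such internal transcript starts. Of the 778 regions, 35 overlapped a RefSeq promoter window of GRCm38.p6, the build of mm10, which runs from 250 bases before to 50 after a transcript start. Windows were at hand for 27025 genes, against 49980 genes in the annotation, so starts of other genes could not be seen. The 35 regions touched 40 windows of 35 genes, and 29 covered the start itself. Since no member lies within 1000 bp of a gene end, these are starts inside a gene. The bases of the member that lie before the start are printed for 6 genes, chosen to show both AT-rich and CpG-rich starts and genes of immune cells. Capitals mark matches, on either strand, to PU.1 (GAGGAAG), AP-1 (TGANTCA), C/EBP (TTGCNNAA), NF-kappaB (GGGA, any 2 bases, TTCC), IRF (GAAA, any 2 bases, GAAA), the E-boxes CACGTG and CACATG, or CTCF (CCAC, any base, AG, any 2 bases, G, any base, CA), where N is any base. Matches to different motifs may overlap. Most of the 35 members had no match in the bases before the start, so the printed genes do not show how common matches were.
Cytip (chr2:58160123-58160303, minus strand): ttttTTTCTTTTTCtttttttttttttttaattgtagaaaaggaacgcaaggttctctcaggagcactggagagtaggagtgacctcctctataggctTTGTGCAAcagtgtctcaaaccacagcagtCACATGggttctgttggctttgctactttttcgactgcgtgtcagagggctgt
Rnase6 (chr14:51128809-51129008, plus strand): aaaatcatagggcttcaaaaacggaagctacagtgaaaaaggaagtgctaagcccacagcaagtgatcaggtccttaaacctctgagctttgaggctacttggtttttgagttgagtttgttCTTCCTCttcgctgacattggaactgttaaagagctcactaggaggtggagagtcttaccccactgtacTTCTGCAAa
Marchf1 (chr8:66386216-66386300, plus strand): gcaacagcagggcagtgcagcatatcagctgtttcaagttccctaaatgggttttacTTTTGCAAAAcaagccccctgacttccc
Mast3 (chr8:70792434-70792637, minus strand): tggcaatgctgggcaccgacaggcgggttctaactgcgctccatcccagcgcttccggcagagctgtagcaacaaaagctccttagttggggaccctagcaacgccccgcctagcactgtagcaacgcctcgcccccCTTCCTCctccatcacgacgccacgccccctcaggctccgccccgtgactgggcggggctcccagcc
Ptpn22 (chr3:103860038-103860276, plus strand): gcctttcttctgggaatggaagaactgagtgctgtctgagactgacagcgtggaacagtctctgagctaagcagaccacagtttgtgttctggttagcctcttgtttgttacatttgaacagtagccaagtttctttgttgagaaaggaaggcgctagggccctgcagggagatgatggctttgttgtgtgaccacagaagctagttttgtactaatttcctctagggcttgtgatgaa
Skp1 (chr11:52231745-52231994, plus strand): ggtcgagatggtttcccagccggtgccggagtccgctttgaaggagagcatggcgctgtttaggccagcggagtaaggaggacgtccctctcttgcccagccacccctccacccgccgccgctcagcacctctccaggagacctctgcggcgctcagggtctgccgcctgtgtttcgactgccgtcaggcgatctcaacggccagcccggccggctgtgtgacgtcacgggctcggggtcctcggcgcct

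Cytip encodes a cytohesin-binding adaptor of leukocytes that tunes adhesion, and its region (chr2:58160026-58160303) had 29 tags at the summit. Its bases hold a C/EBP and a CACATG match, and the IRF match lies in a run of T. Rnase6, an antimicrobial ribonuclease, held a PU.1 and a C/EBP match in a member of 16 tags that lies wholly before the start (chr14:51128809-51129008). Marchf1, a ubiquitin ligase that removes MHC class II and CD86 from the cell surface, held 2 overlapping C/EBP matches in a member of 13 tags (chr8:66386216-66386422). Mast3, a kinase, held 1 PU.1 match in 204 bases with 15 CpG steps, and its member had 16 tags (chr8:70792393-70792637). The member at Ptpn22, a phosphatase that limits antigen and Toll-like receptor signalling, had 20 tags (chr3:103860038-103860446), and that at Skp1, a subunit of SCF ubiquitin ligases, had 18 (chr11:52231594-52232195). Neither printed stretch has a match to these letters, and they hold 2 and 24 CpG steps.

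Across the whole windows of 300 bases, 9 of the 35 members had a window with the PU.1 letters, 6 with the C/EBP letters, 5 with each E-box, 2 with IRF, 1 with NF-kappaB and none with AP-1 or CTCF. By window, the PU.1 letters stood in 10 of 40 (25.0%), against 13.6% of all 32851 RefSeq windows and 12.5% of the 321 windows at distal regions shared by the naive and day 15 lists, which here means regions without a day 30 peak. For C/EBP the shares were 17.5%, 10.8% and 12.1%, for CACGTG 15.0%, 7.15% and 5.61%, for CACATG 12.5%, 14.2% and 9.97%, for IRF 3 of 40 windows, 3.44% and 2.80%, and for NF-kappaB 5.00%, 1.47% and 3.12%. AP-1 letters stood in 7.81% of all windows and 4.05% of the shared ones, and CTCF letters in 0.426% and 0.623%. Windows of 1 gene overlap and share bases, so the 40 are fewer separate sequences, and a match is a description of letters and not of binding. The windows at members had a median GC content of 60.2% and 21 CpG steps, against 60% and 20 at shared distal regions and 52.7% and 7 in all windows. The members' windows ranged from 0 CpG steps at Marchf1 to 45 at Dazap1, an RNA-binding protein gene.

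The data behind the lists set what a day 15-only call can show. Depth, recovered from the floor of the local background, was 39.2 tags per 10 kb for naive, 93.5 for day 15 and 82.2 for day 30. The day 15 list was thus 2.38 times as deep as the naive one. The lists held 14731, 10861 and 3352 peaks, and the lowest summit pileup of any peak was 6, 9 and 9 tags. The median summit pileup was 16, 19 and 17 tags, and the median fold over local background was 6.80, 5.65 and 5.53. Of 30 identity genes 25 had a boundary peak (within 1000 bp of a gene end) or a distal region in the naive list and 22 at day 15, against 4 and 4 of 22 lung epithelial markers, 4 and 4 of 19 T and NK cell markers, 0 and 0 of 11 B cell markers, 3 and 3 of 11 neutrophil markers, 3 and 2 of 10 dendritic cell markers, and 4 and 3 of 16 endothelial and fibroblast markers. Of 17 monocyte-derived and interstitial macrophage genes, 8 had such a peak or region in the naive list and 8 at day 15.

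The day 15-only distal regions were weak peaks. Of 4431 distal regions with a day 15 peak, 778 (17.6%, interval 16.5 to 18.7) held only day 15 peaks, against 12.6% of all 10716 regions with one. Summit pileups of members ran from 10 to 61 tags with a median of 15, where distal regions shared by the naive and day 15 lists ran from 10 to 45 with a median of 18. The 61 tags were at a member inside Sfi1 over a local background of 26.8 tags. The median fold over local background was 4.66 against 5.33, and the median −log10 p was 8.13 against 10.3. Members were also narrower, with a median width of 229 bp against 379 bp, and 186 of them had the smallest width that occurs, 200 bp. The 567 day 15-only regions at gene boundaries were close to the members in these values, with medians of 15 tags, a fold of 4.76 and a width of 244 bp, and naive-only distal regions had a median width of 254 bp. The members were selected on the presence and absence of peak calls, so these values are given as a description, with no test.

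Ordered by strength, 516 members (66.3%) lay among the weakest 25% of all day 15 peaks, 192 in the next 25%, 66 in the one after and 4 among the strongest 25%, with none in the top 10%. Among distal day 15 regions split into 4 equal groups by −log10 p, the day 15-only share was 36.5% in the weakest group (33.7 to 39.3), 22.3% in the second (19.9 to 24.8), 9.85% in the third (8.23 to 11.7) and 1.62% in the strongest (1.03 to 2.55). Divided by the depth ratio, member pileups ran from 4.20 to 25.6 tags at the naive depth, with a median of 6.29. The highest was again the one inside Sfi1. For 348 of the 778 (44.7%) the scaled pileup was below 6 tags, the lowest pileup of any naive peak, against 549 of the 2952 shared regions (18.6%) and 219 of the 567 day 15-only boundary regions (38.6%). Those 549 shared regions hold a naive peak by the definition of their set, and a scaled pileup is a day 15 value, not a naive one. The scaling counts depth alone and not the fold, which differed between the lists. At a pileup of 20 tags or more there were 93 members, against 1064 shared regions, and at 25 or more there were 14 members. Depth and peak strength moved with membership, and their part in it was not tested.

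**Figure D1:**
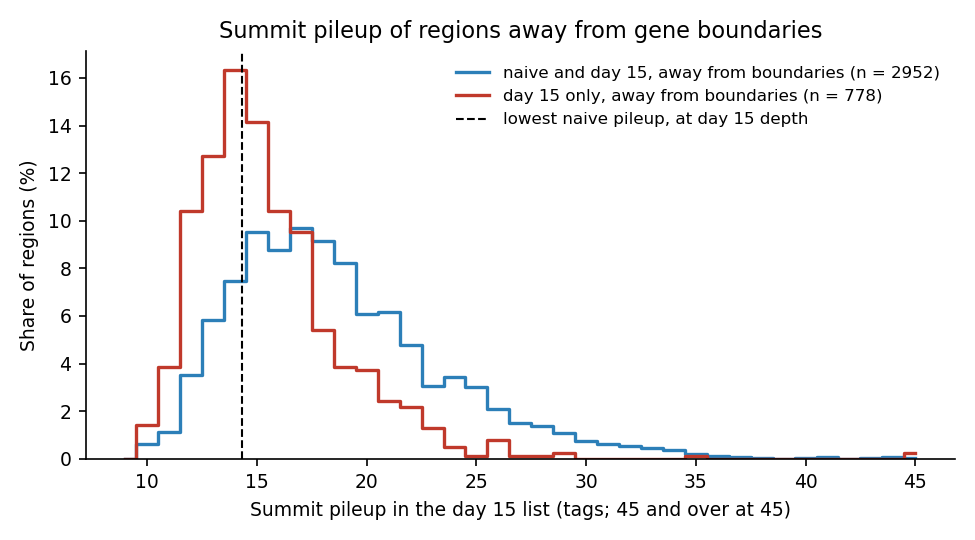
Share of regions (vertical axis, percent) at each summit pileup in the day 15 list (horizontal axis, tags), for the 778 day 15-only and 2952 shared distal regions. The members centre on 15 tags and the shared regions on 18, and the dashed line marks the lowest naive pileup of 6 tags multiplied by the depth ratio of 2.38.

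**Figure D2:**
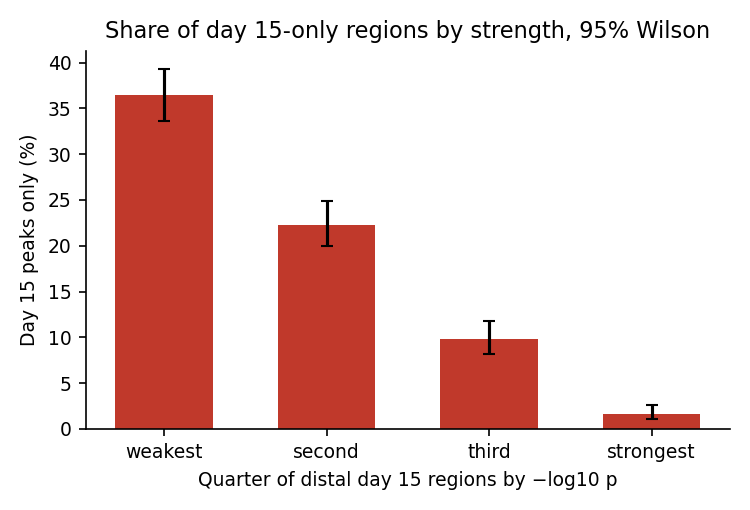
Share of distal day 15 regions that hold day 15 peaks only (vertical axis, percent) in each of 4 equal groups by −log10 p (horizontal axis), with 95% Wilson intervals as bars. The share goes from 36.5% in the weakest group to 1.62% in the strongest.

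The strongest members by −log10 p lay inside Extl3, a glycosyltransferase of heparan sulphate synthesis (chr14:65097892-65098272, 28 tags), inside St7 (chr6:17837707-17838049, 23 tags), inside Il31ra, a receptor chain for interleukin 31 (chr13:112578107-112578388, 22 tags), and in an intergenic stretch of chromosome 3 (chr3:122348780-122349057, 25 tags) only 133 bp from a naive peak. Next came a region 9748 bp from Ubald2 (chr11:116424040-116424346, 21 tags), one 34369 bp from Fth1, the ferritin heavy chain that stores iron (chr19:9945932-9946231, 24 tags), and one inside the overlapping genes Dhrs3, a retinaldehyde reductase, and Vps13d, a lipid transfer protein (chr4:144908900-144909199, 27 tags). The nearest naive peak was 16022 bp from the last of these, 6661 bp from the Fth1 region, and 51767 bp from the one in Extl3.

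The other leading members were a region 29579 bp from Fem1c, a substrate receptor of a ubiquitin ligase (chr18:46474763-46475027, 23 tags), one 332971 bp from the nearest protein-coding gene end, that of Alkbh8 (chr9:3002012-3002260, 20 tags), one 6136 bp from the class I gene H2-T24 (chr17:35997042-35997335, 24 tags) and one 13665 bp from Lrp12 (chr15:39957680-39958038, 20 tags). They were followed by the Cytip region, by one inside Rin3, an exchange factor for Rab5 in early endosomes (chr12:102333167-102333385, 21 tags), by one 12900 bp from Zfp395 (chr14:65345485-65345776, 26 tags) and by one inside Rinl, a relative of Rin3 (chr7:28796711-28796953, 21 tags). None of the leading 15 had a scaled pileup below the naive minimum: the range was 8.39 to 12.2 tags at the naive depth. The weakest members by −log10 q lay 32615 bp from Psen2 (10 tags), inside Arid5b (10 tags) and inside Slc39a14 (11 tags), with −log10 q of 2.00, 2.07 and 2.11.

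The widest members were 629 bp near Ak3 (chr19:29064209-29064837, 14 tags), 602 bp near Lilrb4a, 602 bp at the internal start of Skp1, 593 bp near Leo1 (17 tags) and 532 bp inside Pigv (15 tags). The highest local backgrounds were 26.8 and 21.3 tags at 2 members inside Sfi1 (chr11:3141534-3141875 with 61 tags and chr11:3199459-3199698 with 45 tags), and 8.86 tags at a member inside Plek, the protein kinase C substrate of blood cells (chr11:17005004-17005264, 35 tags). Of the members, 147 (18.9%) were at the background floor of 1.87 tags, and 16 were above 5 tags. Regions were not removed for repeated or multi-copy sequence, whose part in these values was not tested. At the 1000 bp limit itself, the members just inside were 1004 bp from Cd37, 1005 bp from Psrc1 and 1011 bp from Gm33104, with 22, 16 and 17 tags. The regions just outside were 996 bp from Gm11613, 982 bp from Cbarp and 980 bp from Gm39840, with 22, 22 and 16 tags.

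By position the day 15-only distal regions were close to other distal regions in 3 measures. Of the 778, 527 (67.7%, 64.4 to 70.9) overlapped the body of a gene of any kind, against 68.6% (66.9 to 70.3) of the 2952 shared distal regions and 66.5% (64.8 to 68.1) of the 3176 naive-only distal regions. Within 50 kb of an end of a protein-coding gene there were 605 (77.8%, 74.7 to 80.5), against 77.8% (76.3 to 79.3) and 75.8% (74.3 to 77.2). The median distance to such an end was 15796 bp, against 16855 bp and 18415 bp. The intervals of these shares overlap. At promoter windows of internal transcript starts, by contrast, stood 4.50% of members (3.25 to 6.19), 9.45% of shared regions (8.45 to 10.6) and 4.31% of naive-only regions (3.66 to 5.08), so the share in members was below that in the wider shared regions and overlapped that in naive-only ones. Starts of genes without a window are not in these shares.

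**Figure D3:**
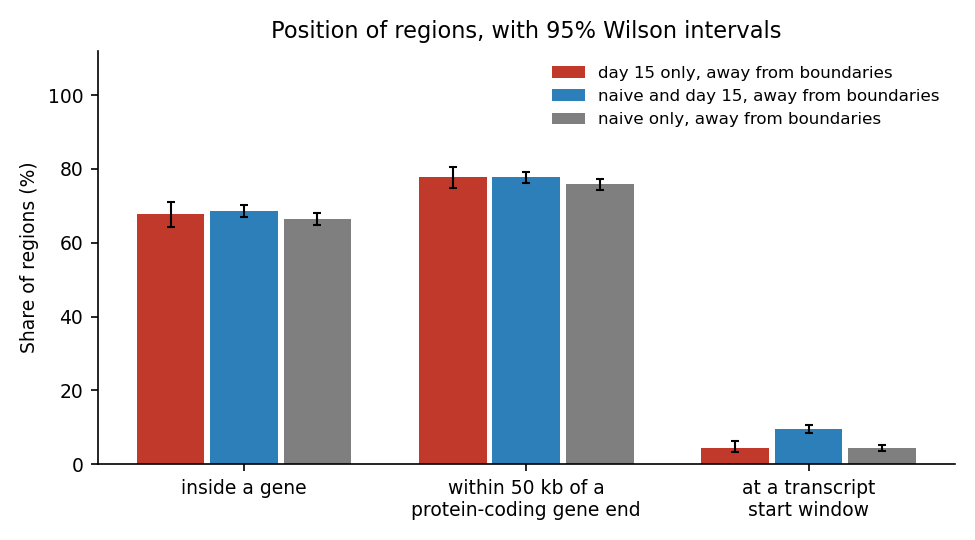
Share of regions (vertical axis, percent) inside a gene, within 50 kb of a protein-coding gene end, and at a promoter window of an internal transcript start, for 778 day 15-only, 2952 shared and 3176 naive-only distal regions, with 95% Wilson intervals. The sets lie side by side for the first 2 measures, and for the last the shared regions stand at 9.45% against 4.50% in the members.

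Inside genes, more members lay near the 5′ end than near the 3′ end. For the 337 members within a single protein-coding gene of known strand, 124 (36.8%, 31.8 to 42.1) had their centre in the first 25% of the gene's length, 94 (27.9%) in the next 25%, 64 in the one after and 55 (16.3%) in the last. In shared distal regions the first 25% held 33.2% (30.8 to 35.7) and in naive-only ones 33.1% (30.7 to 35.5). Of the 149 intergenic members within 50 kb of a protein-coding gene of known strand, 93 (62.4%, 54.4 to 69.8) lay upstream of it and 56 downstream, against 56.1% upstream (52.0 to 60.1) and 55.9% (51.9 to 59.8) in the other sets. Members far from any protein-coding gene end lay 793876 bp from Ncam2 and 538326 bp from Klf4.

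Members lay closer to naive peaks than other distal regions lay to a further naive peak. The median distance to the nearest naive peak was 9616 bp in members, and to the nearest other naive peak 13333 bp in shared distal regions and 16468 bp in naive-only ones. Within 5000 bp of a naive peak lay 264 members (33.9%, 30.7 to 37.3), against 23.2% (21.7 to 24.8) and 20.5% (19.1 to 21.9). Of the day 15-only regions at gene boundaries, 35.3% (31.5 to 39.3) lay within 5000 bp, near the share of the members. Within 500 bp lay 67 members (8.61%), against 19.8% of those boundary regions, and within 200 bp lay 32. The closest were 1 bp away near Cdk19, 12 bp away on chromosome 8 and 23 bp away inside Slc2a1. To the nearest other day 15 peak 179 members lay within 5000 bp (interval 20.2% to 26.1%), against 17.2% of shared (15.9 to 18.6) and 17.3% of naive-only distal regions. Naive calls entered the rule, so these distances are a description. A naive peak raises the naive local background, counted over 10 kb, at places up to 5000 bp away, and the part of this in the missing naive calls was not tested. Shared and naive-only regions each hold a naive peak themselves, while members hold none. The part of that difference in the distances was not tested either. The nearest day 30 peak was farther, in a list of 3352 peaks against 14731 naive ones. The median was 105486 bp in members, 117922 bp in shared and 127072 bp in naive-only distal regions, and 37 members lay within 5000 bp of one. Of the 4431 distal regions with a day 15 peak, 684 held peaks of all lists and 17 held day 15 and day 30 peaks only. Most distal day 15 regions thus lacked a day 30 peak.

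**Figure D4:**
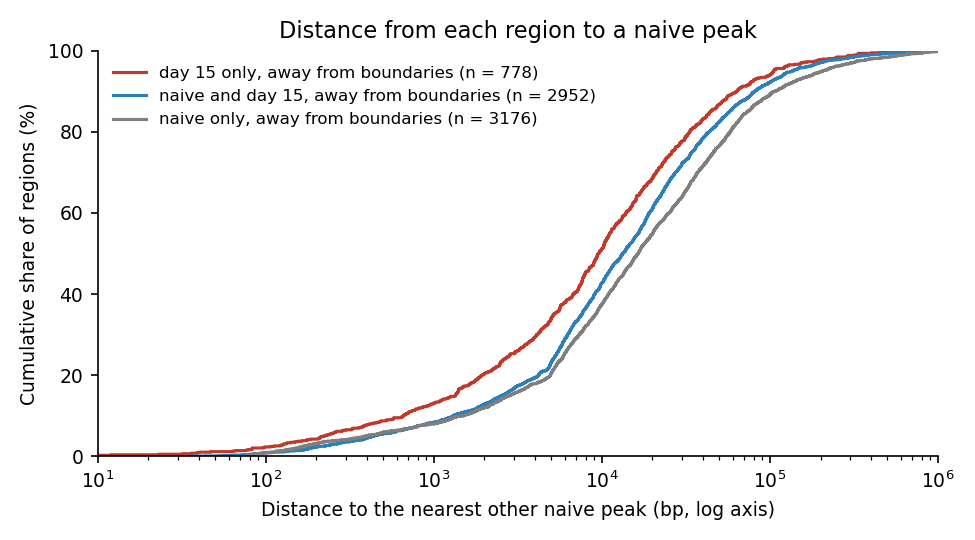
Cumulative share of regions (vertical axis, percent) by distance to the nearest naive peak that is not part of the region itself (horizontal axis, bp, log scale). The day 15-only curve lies above the others, with 33.9% of members within 5000 bp against 23.2% of shared and 20.5% of naive-only distal regions, and the other 2 curves bend at about 5000 bp.

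Members were given to genes by the protein-coding gene whose body holds them (449 members) or else the nearest protein-coding gene end within 50 kb (242 members), while 87 had no such gene. An assignment does not show that a region acts on that gene. The 691 members so placed belonged to 636 genes, 2.91% of the 21887 protein-coding genes and 23.8% of the 2671 genes with any distal day 15 region. Of the 636 genes, 303 (47.6%, 43.8 to 51.5) had a naive boundary peak and 253 (39.8%) a day 15 one, against 46.5% and 38.4% of the 1994 genes with a shared distal region. Boundary peaks present in the naive list and absent at day 15 were found at 71 of the 303 genes (23.4%), and at 23.5% (20.9 to 26.4) of naive boundary genes with a shared distal region. A day 15 boundary peak absent from the naive list stood at 21 of the other 333 genes (6.31%, 4.16 to 9.45), against 5.34% (4.15 to 6.86). Over all 21887 protein-coding genes, 34.7% had a naive boundary peak and 29.6% a day 15 one. There, 20.4% of naive boundary genes had none at day 15, and 3.04% of the others had one at day 15 (2.77 to 3.34).

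Genes with a member often had a naive-only distal region too. A naive-only distal region was assigned to 273 of the 636 genes (42.9%, 39.1 to 46.8), against 696 of the 1994 genes with a shared distal region (34.9%, 32.8 to 37.0), and a shared distal region to 275 (43.2%). Over all 21887 protein-coding genes, 9.86% had a naive-only distal region and 9.11% a shared one. Gene length was not adjusted for. Neither kind of distal region was assigned to 239 of the 636 genes, and 124 of them had no boundary peak in any list either. Over all 21887 protein-coding genes these counts were 18432 and 12082. Distal regions with a day 30 peak, among them the 684 with peaks of all lists, were left out of these counts. The counts rest on peak calls and not on an amount of accessibility.

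Most genes had 1 member: 579 had 1, 50 had 2, 5 had 3 and 2 had 4. Lpp, which encodes a protein of focal adhesions, had 3 members inside it and 1 beyond its end (chr16:24577710-24578043 to chr16:25041247-25041446) with 14, 13, 18 and 15 tags. Itpr1, the inositol trisphosphate receptor that releases calcium from the endoplasmic reticulum, had 4 members inside it over 122104 bp with 13, 17, 12 and 14 tags, beside 3 shared and 5 naive-only distal regions. The genes with 3 members were St7 (18, 13 and 23 tags), Akap13, which encodes an anchor protein of protein kinase A (14, 16 and 17 tags), the chromatin remodeller gene Chd7 (10, 13 and 19 tags), the kinase gene Nek6 (11, 13 and 22 tags) and Pstpip2, an actin-binding F-BAR protein of macrophages (13, 13 and 19 tags over 17257 bp). Of these 7 genes, all had a naive boundary peak, Itpr1, Akap13 and Nek6 had one at day 15 as well, and Lpp, St7, Chd7 and Pstpip2 did not. With 2 members, the highest summed −log10 p belonged to Spp1, Lrp12 and Dock5, a Rac exchange factor (20 and 22 tags). Along the chromosomes, 121 members (15.6%) lay within 50 kb of another member, in 57 stretches, 7 of which held 3 members.

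The genes with a member were then read by 23 lists of genes, holding 532 different genes. Of these, 63 had a member, where 2.91% of all 21887 protein-coding genes had one. Each count below stands beside the list's number of genes with any distal day 15 region, where 23.8% of all such genes had a member. Shared and naive-only distal regions named for a gene leave out regions with a day 30 peak. The lists are small, so that 1 gene moves a share by several percentage points, and no list is called particular from these counts.

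**Figure D5:**
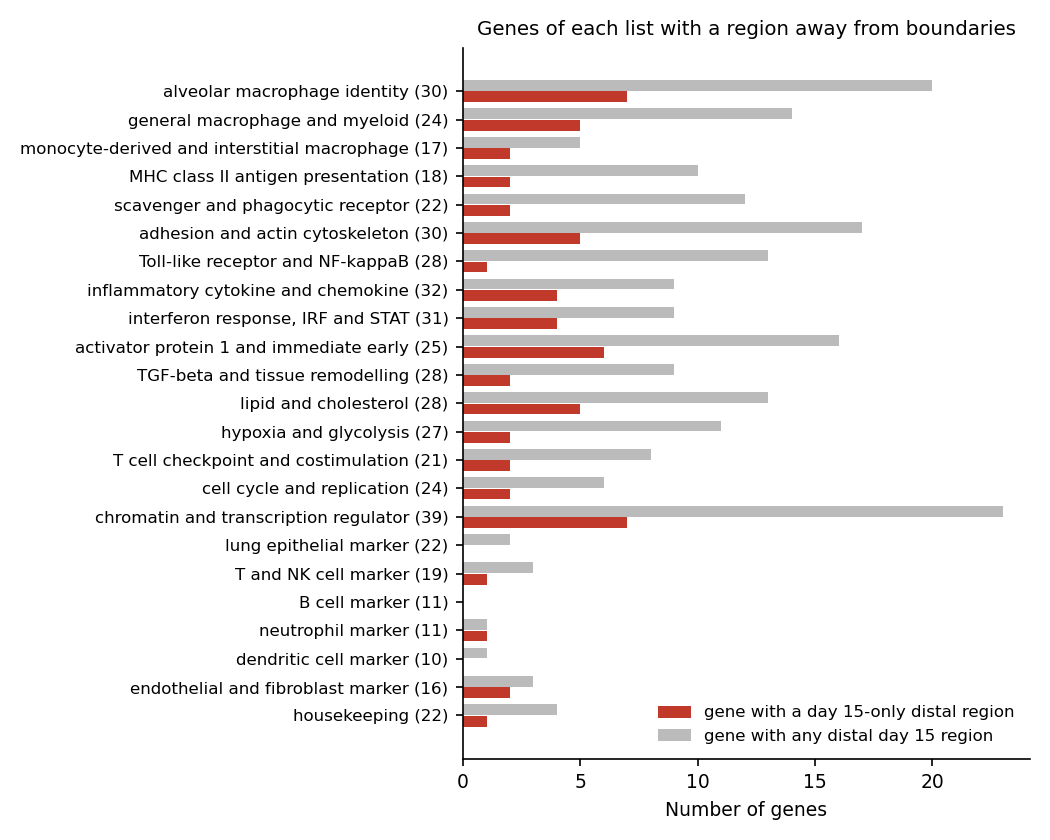
Number of genes of each list (horizontal axis) with a day 15-only distal region and with any distal day 15 region, with the list's number of matched genes in brackets. The alveolar macrophage and chromatin lists each had 7 genes with a member, and the lung epithelial, B cell and dendritic cell marker lists had none.

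Among alveolar macrophage identity genes, 7 of 30 had a member, and 20 had any distal day 15 region. Csf2ra, the alpha chain of the GM-CSF receptor, had a member 17478 bp downstream (chr19:61199504-61199713, 14 tags), and Csf2rb2, a beta chain of the interleukin 3 receptor, had one inside it (chr15:78298711-78298975, 17 tags) and no shared or naive-only distal region. Lpl, lipoprotein lipase, had one inside it (chr8:68886675-68886874, 14 tags). Fabp1, a fatty acid binding protein, had one 14266 bp upstream (chr6:71185299-71185613, 17 tags). Atp6v0d2, a subunit of the lysosomal proton pump, had one inside it (chr4:19895272-19895481, 15 tags) 175 bp from a naive peak. Plet1, a surface protein of alveolar macrophages and epithelium, had 2 (14 and 17 tags), the second 82 bp from a naive peak. The member with the most tags in this list was inside Tgm2, a protein-crosslinking transglutaminase (chr2:158121626-158121931, 20 tags), whose boundary peak was in the naive list and not at day 15.

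Of 24 general macrophage genes, 5 had a member and 14 any distal day 15 region, and all members lay inside the gene. Mertk, a receptor for dying cells, had 2 (chr2:128710797-128711015 and chr2:128718400-128718599, 16 and 18 tags) and no shared distal region. Mitf, a factor of lysosome and lineage genes, had 2 (chr6:97820458-97820847 and chr6:97856401-97856696, 16 and 11 tags) and also no shared one. Syk, the kinase of Fc and C-type lectin receptors, had 2 (chr13:52600299-52600502 and chr13:52619484-52619738, 17 tags each). Lyn, a Src family kinase, had 1 of 16 tags (chr4:3681620-3681850), and Runx1, a factor of blood lineages, had 1 of 12 tags (chr16:92801659-92802009) beside 6 shared and 4 naive-only distal regions. All 5 genes had boundary peaks in both the naive and the day 15 lists.

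Of 17 monocyte-derived and interstitial macrophage genes, 2 had a member, Ly6c2 (chr15:75085518-75085891, 22270 bp downstream, 22 tags) and Gpnmb, a glycoprotein of lipid-laden macrophages (chr6:49026689-49026906, 9612 bp upstream, 15 tags). Ly6c2 lies in a cluster of similar genes, and 5 genes of the list had any distal day 15 region. Among the 18 MHC class II genes 2 had a member. That of H2-Ab1 lay 1442 bp from the gene (chr17:34261517-34261785, 20 tags) and 1231 bp from the nearest naive peak, and that of H2-Ob, a chain of the modulator that restrains peptide loading, lay 3704 bp upstream (chr17:34235002-34235201, 13 tags). In this list 10 genes had any distal day 15 region. The scavenger and phagocytic receptor list had 2 of 22, Cd36, the receptor for oxidised lipids (chr5:17842135-17842408, 13 tags, beside 6 shared distal regions), and Fcgr2b, the inhibitory Fc receptor (chr1:170967640-170967927, 14 tags, with no shared or naive-only distal region). Genes with any distal day 15 region numbered 12.

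In the adhesion and actin list 5 of 30 genes had a member and 17 any distal day 15 region, again all inside the gene. Itgb2, the beta chain shared by leukocyte integrins, had 1 (chr10:77544949-77545197, 16 tags). Pxn, the focal adhesion scaffold paxillin, had the faintest, with 10 tags (chr5:115506507-115506842). Elmo1, a partner of Dock proteins in engulfment, had 1 of 14 tags (chr13:20208134-20208461) and a boundary peak at day 15 that was absent from the naive list. Wasf2, which drives branched actin, had 2 of 14 tags each, within 802 bp (chr4:133169586-133169869 and chr4:133170188-133170387), and Myo1f, a myosin of leukocytes, had 1 of 17 tags (chr17:33564708-33564947).

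Of 32 inflammatory cytokine and chemokine genes, 4 had a member and 9 any distal day 15 region, and all members lay outside the gene. Il1a had one 18152 bp upstream (chr2:129328338-129328537, 15 tags) and Il1b, its neighbour, one 42441 bp upstream (chr2:129413605-129413809, 17 tags). Cxcl2, a neutrophil chemokine, had one 5167 bp upstream (chr5:90898533-90898732, 17 tags), and Ccl6 one at 7543 bp (chr11:83600630-83600907, 19 tags). In the Toll-like receptor and NF-kappaB list 1 of 28 had a member, inside the kinase gene Irak2 (chr6:113663433-113663649, 16 tags), where 13 had any distal day 15 region.

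Of 31 interferon, IRF and STAT genes 4 had a member and 9 any distal day 15 region. Irf4, a factor of alternative activation, had one 10470 bp upstream (chr13:30738532-30738763, 14 tags), and its naive boundary peak was absent at day 15. Irf5, a factor of inflammatory gene expression, showed the opposite at the boundary, with a peak at day 15 and not in the naive list, and had a member at 8777 bp (chr6:29517154-29517353, 12 tags). Ifnar1, a chain of the type I interferon receptor, had one 12492 bp downstream (chr16:91523015-91523283, 17 tags), and Socs3, an inhibitor of cytokine signalling, had 2 downstream of it (chr11:117959954-117960237 and chr11:117963372-117963619, 15 and 14 tags).

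Of 25 activator protein 1 and immediate early genes 6 had a member, with 16 having any distal day 15 region. The member with the most tags lay 4936 bp upstream of Fos (chr12:85468730-85468954, 26 tags), with another 35941 bp upstream (14 tags). Fosb had one inside it (chr7:19308553-19308855, 21 tags over a local background of 5.94), while it had boundary peaks in the naive list and the day 30 list but none at day 15. Fosl2 had one 36554 bp downstream (chr5:32194394-32194606, 19 tags). Ier2, an early growth factor response gene, had one at 4210 bp (chr8:84656826-84657121, 20 tags), Ier3 one at 44489 bp (17 tags) and Dusp6, a phosphatase that switches off ERK, one at 1291 bp (chr10:99268780-99269113, 18 tags).

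In the TGF-beta and remodelling list 2 of 28 genes had a member and 9 any distal day 15 region. Spp1, osteopontin, had 2 upstream, at 1959 bp (chr5:104432851-104433152, 19 tags, fold 6.54) and at 38452 bp (chr5:104396436-104396659, 17 tags), and its naive boundary peak was absent at day 15. Ski, a repressor of SMAD proteins, had one 3355 bp downstream (14 tags). Of 28 lipid genes 5 had a member and 13 any distal day 15 region. Abca1, the cholesterol exporter, had one inside it (chr4:53118781-53118980, 16 tags) and a boundary peak in the naive list that was absent at day 15, whereas Soat1, which esterifies cholesterol, had one inside it (chr1:156437326-156437673, 14 tags) and had a day 15 boundary peak absent from the naive list. The others were inside Npc2, a lysosomal cholesterol carrier (13 tags), inside the nuclear receptor gene Ppard (chr17:28294432-28294729, 16 tags) and 4607 bp upstream of Pltp, the phospholipid transfer protein (16 tags).

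Of 27 hypoxia and glycolysis genes 2 had a member and 11 any distal day 15 region. The member inside Slc2a1, the glucose transporter GLUT1, had 22 tags (chr4:119125640-119125846) and was the one 23 bp from a naive peak, and that inside Pfkfb4 had 12 tags (chr9:109021676-109021995). In the checkpoint list 2 of 21 had a member and 8 any distal day 15 region. Pdcd1lg2, the PD-1 ligand PD-L2, had one inside it (chr19:29431056-29431313, 15 tags) and one 12438 bp downstream (chr19:29485365-29485584, 17 tags), with no boundary peak in any list. Lilrb4a, an inhibitory receptor of myeloid cells, had one at 24723 bp (chr10:51521336-51521937, 19 tags), and its naive boundary peak was absent at day 15.

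Of 39 chromatin and transcription regulators 7 had a member and 23 any distal day 15 region. Kdm6b, a histone H3 lysine 27 demethylase induced in activated macrophages, had 2 inside it (chr11:69408665-69408954 and chr11:69418014-69418213, 20 and 14 tags). Etv6 had 2 (19 and 14 tags) and Runx2 had 2 within 1612 bp (chr17:44653206-44653479 and chr17:44654611-44654817, 19 and 12 tags). Nfe2l2, which encodes the oxidative stress factor NRF2, had one 28523 bp upstream (chr2:75733186-75733527, 16 tags). Dnmt3a, Tcf4 and Zfhx3 had 1 each, with 13, 14 and 11 tags. In the cell cycle list 2 of 24 had a member, inside the cyclin genes Ccnd2 (20 tags) and Ccnd3 (15 tags), where 6 had any distal day 15 region.

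None of the 22 epithelial, 11 B cell or 10 dendritic cell markers had one, and 2, 0 and 1 of them had any distal day 15 region. The T and NK list had 1 of 19, near Klrb1c (12 tags), the neutrophil list 1 of 11, inside Ltf (15 tags), and the endothelial and fibroblast list 2 of 16, inside Vwf (15 tags, 378 bp from a naive peak) and 14603 bp from Acta2 (13 tags). Any distal day 15 region was found at 3, 1 and 3 genes of these lists, so the members' shares of them (33.3%, 100% and 66.7%) were above the 23.8% over all such genes and rest on 1 to 2 genes each. Other lists were above it too, such as the cytokine and interferon lists (44.4% each), the monocyte-derived list (40%) and the alveolar macrophage list (35%). Lists below it included MHC class II (20%), scavenger receptors (16.7%) and Toll-like receptors (7.69%). Of 22 housekeeping genes 1 had a member, inside Actb (22 tags over a local background of 5.02), where 4 had any distal day 15 region.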

How the data were processed

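ATAC-seq was done on 11 samples, and 1 peak list was deposited for each of 3 groups. How samples were combined into a list, read filters and caller settings are not given in the sources used here. Named in the submitters' processing notes are Bowtie2 2.3.4.1, MACS2 2.1.1 and mm10. The deposited columns have no headers, and their meaning was taken from the values: a score, the fold (a ratio) over local background at the summit, the −log10 of the p-value and q-value, and the summit offset, all the authors' own.

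Summit pileup and local background were recovered as the whole number of tags whose upper Poisson tail gives the deposited p within 0.001, taking the fold as (pileup + 1)/(background + 1); all peaks had a solution, checked on simulated peaks. Backgrounds fell on steps of 0.02 tags or a floor, which gives depth for tags extended to 200 bp over 10 kb. Where several pileups fitted, backgrounds below the floor were refused.

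Peaks sharing at least 1 bp were merged. Genes came from RefSeq GRCm38.p6 (49980 genes, 21887 protein-coding symbols), without exons. Strand and transcript starts came from its promoter table, which held windows of 27025 genes and no chromosome 18 entry. Genes of any chromosome without an entry there had no strand or start in these counts. The planned motif scan of all members became a scan of promoter windows, since no genome sequence was used here. The members, gene lists and named genes were chosen with earlier results of these data known. Named were the 15 strongest, 5 widest, 3 weakest and 3 of highest background, the 3 on either side of the 1000 bp limit, the 3 farthest from a gene and the 3 closest to a naive peak, up to 10 genes with the most members, and up to 8 genes a list. Of the 3 farthest, 1 is not reported here. The genes with printed sequences were chosen after their values were seen. No test between conditions was possible with 1 list a group. Tools were python 3.11.15, pandas 2.3.3 and scipy 1.17.1.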

Additional observations from a re-analysis of the deposited data

How the results depend on the processing

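The number of members was 675 to 852 when peaks within 200 or 1000 bp were joined, when the boundary was 500 bp or was set at protein-coding genes only, when a −log10 q of at least 3 was asked of all lists or of day 15, or when transcript starts counted as boundaries too (722, chosen after seeing the data), and 526 with a boundary of 5000 bp. With each list held to its 3352 strongest peaks it was 262, and the day 15-only share of distal day 15 regions was 31.3% in place of 17.6%. With only day 15 peaks that reach the lowest naive pileup after scaling to the naive depth, chosen after seeing the data, the number was 430 and the share 12.3%. Joining peaks within 1000 bp gave a share of 15.9%. A boundary of 5000 bp gave 71.1% of members within 50 kb of a protein-coding gene end, in place of 77.8%. The share inside genes was 65.2% to 68.8% and the median pileup 15 to 17 tags under the alternatives run for them.

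When only the gene whose body holds a member counted, 36 list genes in place of 63 had one, 37 genes in place of 57 had 2 or more members, the alveolar macrophage list had 4 in place of 7, the immediate early list 1 in place of 6, the checkpoint list 1 in place of 2, the endothelial and fibroblast list 1 in place of 2, and the monocyte-derived, MHC class II, cytokine, interferon, TGF-beta and T cell lists 0 each. With the nearest gene within 100 kb whatever the host, the Toll-like receptor list had 2 in place of 1, the cell cycle list 1 in place of 2 and the chromatin list 4 in place of 7. Fewer assignments follow from the first of these rules by construction, and the cause of the other differences was not tested.

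No paired analysis was possible because each group has 1 peak list and no value per sample, and leaving out samples in turn was impossible for the same reason. The naive list is the shallowest of the 3 and has the highest median fold, 6.80 against 5.65 at day 15 and 5.53 at day 30. Scaled to its depth, the day 15 pileups of 44.7% of members and 18.6% of shared distal regions were below its lowest pileup. The shared regions hold a naive peak by definition. The scaling does not account for the difference in fold, and the part of depth in the calls was not tested.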

Other observations

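Few members lay on the X chromosome. There were 3 (0.386%, 95% Wilson interval 0.131 to 1.13), near Las1l, inside Mamld1 and near Atp7a, with 14, 14 and 11 tags, against 33 of 2952 shared distal regions (1.12%, 0.797 to 1.57) and 82 of 3176 naive-only ones (2.58%, 2.08 to 3.19). Of the 567 day 15-only regions at gene boundaries, 1 was on it (0.176%, 0.0311 to 0.992), so a low share was not particular to the members. In the whole lists, 2.24% of naive, 1.59% of day 15 and 1.10% of day 30 peaks were on this chromosome. The interval of the members overlaps that of the shared regions and lies below that of the naive-only ones. The labels used here give no sex for the mice.

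Several genes of immune cells outside the lists had a member, and these were chosen after their values were seen. Ptafr, the receptor for platelet-activating factor, had one inside it (chr4:132567448-132567700, 21 tags), as did Entpd1, which encodes the ATP-degrading CD39 (chr19:40639815-40640242, 23 tags), Cd44, the hyaluronan receptor (chr2:102899262-102899493, 23 tags), and Cd37, a tetraspanin of immune cells (chr7:45238046-45238336, 22 tags). Lcp2, the adaptor SLP-76, had 2 with 15 and 16 tags, and Ptpn6, the phosphatase SHP-1, had 1 with 13. A member lay 1017 bp upstream of Mcl1, a survival factor of the BCL2 family (chr3:95655699-95655927, 26 tags over a local background of 7.26), and one 1791 bp upstream of Myo1g, a myosin of blood cells (chr11:6522751-6523159, 22 tags).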
